A study of Mus musculus with 16 samples.

Results

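The amyloid precursor protein gene App, its paralogs Aplp1 and Aplp2, and Apbb1 and Apbb2, which encode the adaptor proteins Fe65 and Fe65-like 1, were followed through the long reads (PacBio Iso-seq) of brain tissue from R6/2 mice, a model of Huntington's disease, and non-transgenic (NT) mice. They are 5 of 23724 genes with at least 1 read assigned to a known or new isoform, and they were chosen by the gene reads and isoform shares measured in these same libraries. Their levels and isoform shares are therefore given as descriptions, with no p value for any single member, and fits across all genes are used for fold changes and for how many members were called beside the share of all genes called. All animals were untreated males, which the study used at 3 months of age, and the R6/2 mice (B6CBA background) carry a transgene for exon 1 of human HTT with an expanded CAG repeat while keeping their own mouse Htt. Each of the 4 groups (NT cortex, R6/2 cortex, NT striatum and R6/2 striatum) held 4 samples of whole tissue of that region, so that fewer cells of a type and less RNA per cell cannot be told apart.

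App and the App-like proteins are single-pass membrane proteins that are cut in turn outside and inside the membrane by secretases. Their short cytoplasmic tails hold an NPxY-type motif that is bound by phosphotyrosine-binding domains of adaptors of the Fe65 family, which also carry a WW domain. Neurons make mainly App transcripts that skip a cassette exon for a Kunitz-type protease inhibitor domain, and other cell types of the brain include that exon more often. A similar Kunitz exon is part of Aplp2, whereas Aplp1 has none.

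The sequences below carry the isoform differences described here. The first pair are the Kunitz-domain exons of App (chr16:85043576-85043743) and Aplp2 (chr9:31167561-31167728), both 168 nt long and read from GENCODE M21 transcripts (GRCm38, minus strand), with capitals at the 114 positions (67.9%) where they share a base.
App Kunitz exon: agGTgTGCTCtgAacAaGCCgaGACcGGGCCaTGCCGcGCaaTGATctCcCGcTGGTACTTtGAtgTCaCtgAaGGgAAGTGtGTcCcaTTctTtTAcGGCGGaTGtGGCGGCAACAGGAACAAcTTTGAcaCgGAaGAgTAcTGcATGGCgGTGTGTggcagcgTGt
Aplp2 Kunitz exon: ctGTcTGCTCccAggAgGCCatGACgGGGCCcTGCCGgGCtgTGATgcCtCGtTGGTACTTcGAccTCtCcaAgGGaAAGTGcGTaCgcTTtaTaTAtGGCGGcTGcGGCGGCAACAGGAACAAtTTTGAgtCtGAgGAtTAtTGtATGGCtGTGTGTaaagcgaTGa
The second set are the smaller cassette exons, which are the 57-nt exon that follows the Kunitz exon of App (chr16:85040251-85040307), the 54-nt exon of App that leukocyte-type forms skip (chr16:84971408-84971461) and the 36-nt exon of Aplp2 (chr9:31156190-31156225).
App 57-nt exon: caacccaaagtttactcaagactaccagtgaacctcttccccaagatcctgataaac
App 54-nt exon: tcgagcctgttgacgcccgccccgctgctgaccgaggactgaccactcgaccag
Aplp2 36-nt exon: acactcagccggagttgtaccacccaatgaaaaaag
The last pair are coding bases from the start codon on of a long and a short Apbb1 isoform (chr7:105574283-105574402 and chr7:105568619-105568670, minus strand), with ATG in capitals, which show that the isoforms begin their reading frames in different exons.
Apbb1-002: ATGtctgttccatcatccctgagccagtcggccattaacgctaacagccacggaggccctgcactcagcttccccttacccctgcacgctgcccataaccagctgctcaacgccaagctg
Apbb1-007: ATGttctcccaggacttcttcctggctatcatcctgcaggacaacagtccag

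Libraries held 252885 to 808814 reads in the cortex and 317050 to 1496196 in the striatum. The genes lie on the minus strand of GRCm38 at chr16:84949685-85173766 (App, ENSMUSG00000022892), chr7:30434982-30445535 (Aplp1, ENSMUSG00000006651), chr9:31149557-31211815 (Aplp2, ENSMUSG00000031996), chr7:105558483-105581653 (Apbb1, ENSMUSG00000037032) and chr5:66298703-66618784 (Apbb2, ENSMUSG00000029207). The labels mark 4 striatal samples (NT 1 and 2, R6/2 2 and 3) as 2 replicates of raw data, their 2 sets of counts were summed, and the mean length of the isoforms read was 2125 to 2197 nt in these samples against 1589 to 1840 nt in the other 4 striatal samples and 1821 to 2068 nt in the cortex. Levels are given in CPM, reads scaled to a common library size after TMM normalization. Markers of striatal projection neurons summed to 10539 to 14453 CPM in NT striatum and 392 to 490 CPM in NT cortex, and those of cortical excitatory neurons to 473 to 784 CPM in NT cortex and 166 to 212 CPM in NT striatum, so the regions matched their labels. In R6/2 samples the same sums were 1970 to 3418 CPM (projection neurons, striatum) and 262 to 350 CPM (excitatory neurons, cortex). Astrocyte markers summed to 2295 to 3633 CPM in NT cortex and 1344 to 1833 CPM in R6/2 cortex, with all 6 of the list read in each group, while oligodendrocyte markers overlapped between genotypes (4076 to 7997 and 3846 to 6084 CPM in the cortex). Choroid plexus markers were uneven between samples of a group, at 18.1 to 996 CPM in NT cortex and 32.5 to 1643 CPM in R6/2 cortex. In the striatum they were at 55.3 to 9630 CPM (NT) and 95.5 to 323 CPM (R6/2). The part of these shifts in cell type markers in the results below was not tested.

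Apbb1 showed the plainest pattern. Of its 7143 complete reads (reads of known, NIC or NNC isoforms, where NIC isoforms combine annotated splice sites in a new way and NNC isoforms use a new splice site), 5552 belonged to Apbb1-002, which has 14 exons and 2878 nt, and 419 to Apbb1-001, which has another first exon and 2712 nt. Both hold a second exon of 735 nt (chr7:105573682-105574416) that contains 721 coding bases with the start codon, and both encode 708 residues. Apbb1-007, with 273 reads, starts from its own first exon 3′ of that exon (chr7:105568619-105568777), has 13 exons and 1630 nt, and encodes 485 residues from a start codon in that first exon. Reads that match only a part of a known isoform form a class of their own, incomplete splice matches (ISM), and are not among the complete reads. The part of shortened molecules in the short isoforms was not tested.

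**Figure D1:**
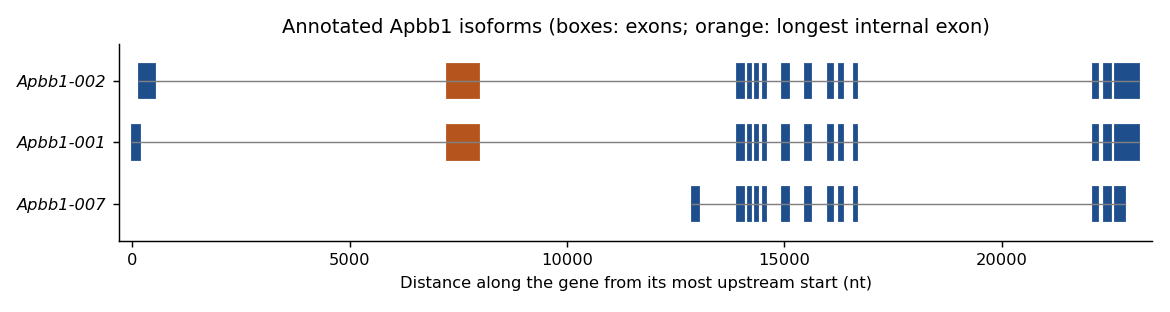
Exons of the 3 annotated Apbb1 isoforms named in the text, drawn to scale against the distance in nucleotides from the most upstream annotated start. Apbb1-002 and Apbb1-001 hold the 735-nt exon (orange), and Apbb1-007 begins downstream of it.

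Further short isoforms of Apbb1 fell into the NIC class. The most frequent had 13 exons and 1838 nt (323 reads), and others had 14 exons and 1872 nt (119 reads), 13 exons and 1977 nt (105 reads) and 14 exons and 1916 nt (28 reads). In a search of chains of annotated exons that match these exon numbers and lengths, no chain contained the 735-nt exon. The chains either began 3′ of it or, for some of the 13-exon and 14-exon forms, skipped it from an upstream start, so their first exons cannot be stated. The forms of 1872, 1977 and 1916 nt were named after their reads were seen. Reads of isoforms with 12 or more exons were therefore split at 2143 nt, the length of Apbb1-002 without the 735-nt exon. At or under this length lay 933 reads in 48 isoforms, and above it lay 6201 reads. This split was chosen after the lengths had been seen.

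In NT cortex the short isoforms made up 44.6%, 31.3%, 39.1% and 30.2% of the split reads in samples 1 to 4 (mean 36.3% ± 6.8, SD, n = 4). In R6/2 cortex they made up 19.1%, 18.05%, 16.6% and 18.2% (mean 17.97% ± 1.04, SD, n = 4). All 4 R6/2 samples lay below all 4 NT samples, and the means differed by 18.4 percentage points. The reads behind these shares numbered 45 to 139 short reads of 115 to 460 in NT and 45 to 84 of 236 to 507 in R6/2 samples. How often isoform shares of all genes separate between groups in this way was not counted, here or for the shares below. The mean length of all isoforms read overlapped between the genotypes in the cortex (1821 to 2068 nt in NT and 1844 to 2003 nt in R6/2), and so did the percent of Apbb1 reads that were ISM (11.5% to 19.2% in NT and 8.63% to 14.2% in R6/2). The summed markers of cortical excitatory neurons, astrocytes and striatal projection neurons (392 to 490 CPM in NT and 99.8 to 136 CPM in R6/2) did not overlap between genotypes in the cortex, and their part in the Apbb1 shares was not tested. By gene, 2 of 5 excitatory neuron, 1 of 6 astrocyte and 2 of 3 projection neuron markers tested were called lower there, where 3.23% of all genes were called.

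On the CPM scale the short isoforms averaged 283 ± 46 CPM in NT cortex, with 229 to 341 CPM per sample, and 106 ± 15 CPM in R6/2 cortex, with 85.9 to 121 CPM per sample. The long isoforms averaged 511 ± 144 CPM in NT and 486 ± 102 CPM in R6/2 cortex (SD, n = 4 each). The genotypes thus did not overlap for the short isoforms and overlapped for the long ones, where the difference in means was smaller than either SD.

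**Figure D2:**
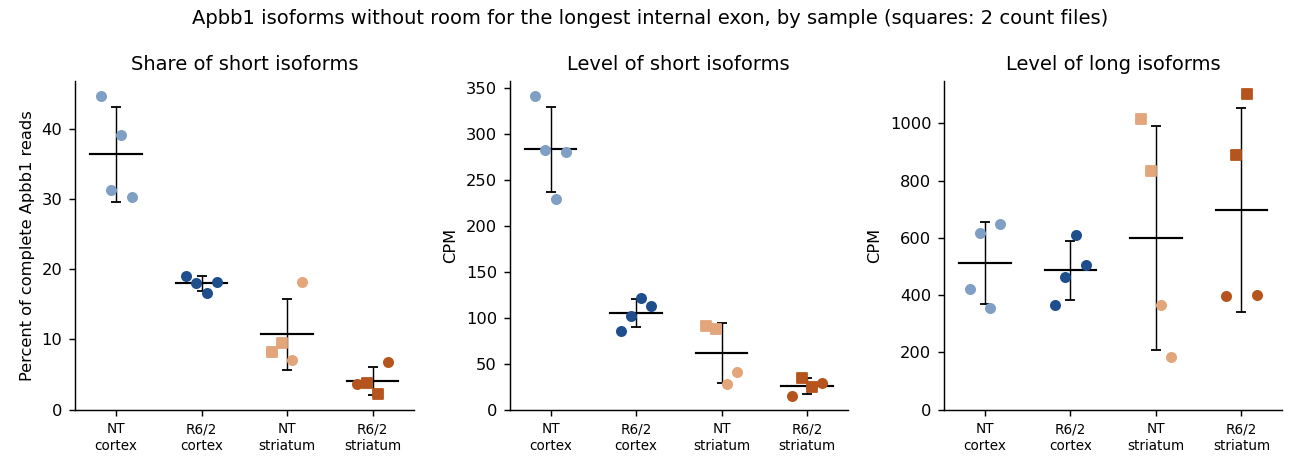
Share of short isoforms among the Apbb1 reads split by length (left, percent) and levels of short (middle) and long isoforms (right, CPM) for each of the 16 samples, with lines at group means, bars of 1 SD and squares for samples with 2 sets of counts. The R6/2 cortex samples sit between 16.6% and 19.1% in the left panel, all below the NT cortex samples, while the long isoforms overlap between genotypes.

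The annotated short isoform, which is itself among the short reads above, gave the same order. Apbb1-007 held 15.8%, 12.5%, 10.4% and 10.4% of the complete Apbb1 reads of the NT cortex samples and 7.20%, 3.76%, 4.13% and 5.43% of those of the R6/2 cortex samples. Its level was 98.0 ± 26.7 CPM in NT and 29.4 ± 5.6 CPM in R6/2 cortex (SD, n = 4). The 1838-nt NIC isoform held 8.70% to 13.6% in NT and 6.78% to 9.40% in R6/2 cortex, so its shares overlapped between genotypes. Its levels did not overlap, at 76.3 to 104 CPM in NT and 30.6 to 53.1 CPM in R6/2 cortex. How often isoform levels of all genes separate in this way was not counted. Apbb1-002 held 50.9% to 63.2% of the reads in NT and 69.5% to 74.8% in R6/2 cortex, and Apbb1-001 held 1.83% to 5.65% and 5.81% to 8.65%. Both long isoforms thus made up a larger share in every R6/2 than in every NT cortex sample. These are shares of the same reads, so they are not separate from the lower share of the short isoforms.

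In the striatum the short isoforms were a smaller part of Apbb1. They made up 8.21%, 9.50%, 7.08% and 18.2% in NT striatum (mean 10.7% ± 5.1, SD, n = 4) and 3.69%, 3.75%, 2.168% and 6.86% in R6/2 striatum (mean 4.12% ± 1.97, SD, n = 4). The 4 R6/2 samples again lay below the 4 NT samples, although NT striatum 4, the highest, rested on 8 short reads of 44. Summed astrocyte markers (1966 to 3905 CPM in NT and 1315 to 1849 CPM in R6/2) and the projection neuron markers given above did not overlap between genotypes in the striatum either, and their part was not tested. By gene, 0 of 6 astrocyte and 4 of 9 projection neuron markers were called lower there, where 0.507% of all genes were called. Among samples with 2 sets of counts the means were 8.86% (NT) and 2.96% (R6/2), and among those with 1 set they were 12.6% and 5.27%, with 2 samples in each. Short isoforms reached 61.7 ± 32.2 CPM in NT and 25.9 ± 8.3 CPM in R6/2 striatum, and long isoforms 600 ± 390 and 697 ± 356 CPM (SD, n = 4), and both levels overlapped between genotypes. In NT mice every cortical share lay above every striatal one, and the means were 25.6 percentage points apart.

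Across all genes, usage of isoforms was compared with edgeR's diffSpliceDGE, which tests whether an isoform changes relative to the other isoforms of its gene. Between R6/2 and NT cortex it called 11 of 3060 genes (0.359%), and 1 of the 4 members tested, Apbb1, was among them. It called 10 of 3698 genes (0.270%) between the striatum and cortex of NT mice, with Apbb1 again the member called of 5 tested, and 3 of 4443 genes (0.0675%) between genotypes in the striatum, with 0 of 5 members. Since isoform shares of these libraries chose the members, nothing is read from these counts. In the cortex Apbb1 was no longer called without NT cortex 2 or R6/2 cortex 2, 3 or 4, with ISM isoforms added or with the sample number as a block. Between regions it was no longer called without NT striatum 2 or 3, without NT cortex 1, 2, 3 or 4, or with ISM isoforms added.

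App was read almost wholly as the form without the Kunitz exon. The annotated App-201, with 16 exons, lacks the Kunitz exon and the following 57-nt exon, encodes 695 residues and held 11518 of the 12263 complete App reads (93.9%). It is the only App isoform named in the counts, so the Kunitz forms appeared as NIC isoforms. By exon number and length the largest were App-201 with the 168-nt exon (17 exons, 3296 nt, 188 reads), with the 168-nt and the 57-nt exon (18 exons, 3353 nt, 90 reads), without the 54-nt exon (15 exons, 3074 nt, 72 reads) and with the 168-nt exon but without the 54-nt exon (16 exons, 3242 nt, 41 reads).

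The Kunitz exon was in 1.13%, 1.52%, 2.03% and 1.83% of the placed App reads in NT cortex (mean 1.63% ± 0.39, SD, n = 4) and in 5.40%, 2.81%, 6.45% and 5.80% in NT striatum (mean 5.12% ± 1.59, SD, n = 4). Every striatal NT sample lay above every cortical one, by 3.49 percentage points between the means. In R6/2 mice the shares were 1.28%, 1.16%, 1.46% and 2.22% in the cortex (mean 1.53% ± 0.47) and 3.91%, 3.24%, 2.81% and 3.202% in the striatum (mean 3.29% ± 0.46). Genotypes overlapped in both regions, in the striatum through NT striatum 2 alone, and every R6/2 striatal sample lay above every R6/2 cortical one. ISM reads, which cannot be placed, made up 15.5% to 42.9% of the App reads in NT striatum, 12.5% to 18.4% in R6/2 striatum, 13.3% to 35.2% in NT cortex and 12.1% to 17.2% in R6/2 cortex. The reads that held the exon numbered 3 to 17 per NT cortex and 4 to 49 per NT striatum sample, and their level was 26.1 ± 12.6 and 39.2 ± 18.6 CPM (SD, n = 4), with overlapping ranges. Oligodendrocyte markers were also higher in NT striatum (13917 to 32835 CPM) than in NT cortex (4076 to 7997 CPM). Choroid plexus markers overlapped between these groups but reached 9630 CPM in NT striatum against at most 996 CPM in NT cortex. The part of either in the share was not tested.

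The 57-nt exon was in 0.453% ± 0.129 of the placed App reads in NT cortex and 1.38% ± 1.30 in NT striatum, where NT striatum 4 had 0 of 69 reads, which allows a share of up to 4.35%. In R6/2 samples it was in 0.294% ± 0.176 (cortex) and 0.928% ± 0.217 (striatum). The 54-nt exon, whose absence marks a form found outside neurons, was in 98.9% to 99.3% of the placed reads on average in all 4 groups.

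Aplp2 differed from App in that its main isoform held the Kunitz exon. Of 1725 complete reads, 1151 (NIC, 18 exons, 3694 nt) matched a single chain of annotated exons that holds both the 168-nt and the 36-nt exon and begins at the start of Aplp2-006. This full-length form is not named in the counts. The annotated isoforms followed with 235 reads for Aplp2-003 (36-nt exon only, 707 residues), 114 for Aplp2-002 (neither exon, 695 residues) and 98 for Aplp2-001 (168-nt exon only, 751 residues).

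With the 3694-nt isoform included, the Kunitz exon was in 68.4%, 81.6%, 84.4% and 88.9% of the placed Aplp2 reads in NT cortex (mean 80.8% ± 8.8, SD, n = 4) and in 90.9%, 87.04%, 84.3% and 86.4% in R6/2 cortex (mean 87.2% ± 2.8). It was in 72.4%, 73.9%, 85.7% and 77.8% in NT striatum (mean 77.4% ± 6.0) and in 64.5%, 75.5%, 78.0% and 75% in R6/2 striatum (mean 73.3% ± 6.0). Genotypes overlapped in both regions, as did NT cortex and NT striatum. In R6/2 mice every cortical sample lay above every striatal one. The reads placed numbered 9 to 291 per sample, so single shares are coarse.

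Counted over annotated isoforms alone, which leaves out that main isoform, the Kunitz exon was in 39.1% ± 9.9 (NT cortex), 38.3% ± 7.0 (R6/2 cortex), 25.3% ± 7.2 (NT striatum) and 20.2% ± 7.2 (R6/2 striatum) of 49 to 214 reads per group. The 36-nt exon was in 83.0% ± 7.3, 89.0% ± 4.9, 87.8% ± 3.2 and 83.5% ± 6.2 of the placed reads in the same order of groups (SD, n = 4), and the 4 ranges overlapped. Many Aplp2 reads were incomplete. ISM reads made up 41.1% to 65.7% in NT cortex, 46.8% to 56.6% in R6/2 cortex, 25.9% to 79.6% in NT striatum and 22.7% to 42.8% in R6/2 striatum, and they cannot be placed.

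**Figure D3:**
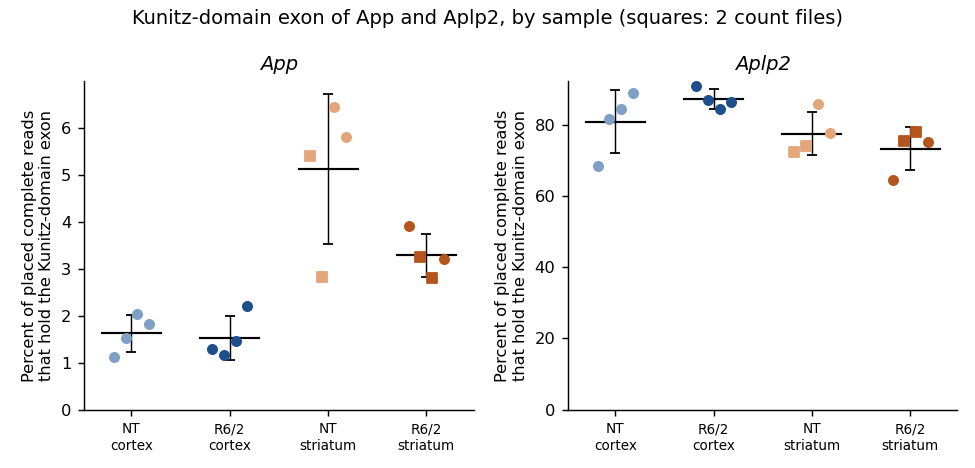
Percent of placed complete reads of App (left) and Aplp2 (right) that hold the 168-nt Kunitz exon in each of the 16 samples, with lines at group means, bars of 1 SD and squares for samples with 2 sets of counts. App stays at or under 6.45% and is higher in every NT striatum than in every NT cortex sample, and Aplp2 lies between 64.5% and 90.9%.

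Aplp1, which is made mainly in neurons, was read as a single isoform. Aplp1-001 has 17 exons and 2343 nt, encodes 654 residues and held 16976 of 17446 complete reads (97.3%). The rest was spread over 47 NIC and 87 NNC isoforms that together held 470 reads. Its share was 97.0% of the pooled reads in NT cortex, 96.8% in R6/2 cortex, 97.6% in NT striatum and 97.3% in R6/2 striatum.

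Apbb2 was at the depth limit, with 336 reads in all samples and 1 to 43 complete reads per sample. Its most frequent isoform was the 7-exon Apbb2-002 (1638 nt, 73 reads), a processed transcript without a coding sequence in the annotation that starts within the gene (chr5:66301872-66337682). The full-length coding isoforms Apbb2-004 (17 exons, 34 reads, 758 residues) and Apbb2-007 (16 exons, 13 reads, 737 residues) differ by a 63-nt cassette exon (chr5:66392273-66392335). NIC isoforms of 17 exons and 3472 nt (17 reads) and of 7 exons and 1619 nt (15 reads) followed. The 63-nt exon was in 17 of 24 reads that span it in NT striatum and 14 of 19 in R6/2 striatum, and cortical samples gave 2 of 3 and 1 of 2 reads. No difference was detectable at this depth.

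Gene levels of the members overlapped between genotypes in both regions. App was at 1193, 2792, 1638 and 2254 CPM in NT cortex and at 1996, 1577, 1542 and 2527 CPM in R6/2 cortex. In NT striatum it was at 1446, 1427, 910 and 639 CPM, and in R6/2 striatum at 1399, 1390, 1493 and 1269 CPM. The group means fell in the order NT cortex (1969 ± 700), R6/2 cortex (1910 ± 460), R6/2 striatum (1388 ± 92) and NT striatum (1105 ± 398), and no neighbours in this order were further apart than the larger of their SDs except R6/2 cortex and R6/2 striatum. All 4 R6/2 striatum samples lay below all 4 R6/2 cortex samples. The fitted log2 fold changes (± SE) for R6/2 against NT were -0.03 ± 0.24 (cortex) and 0.34 ± 0.28 (striatum), and that for striatum against cortex in NT mice was -0.83 ± 0.29. The cortical value, close to 0, had the other sign under 8 of 14 alternative settings.

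Aplp1 was at 1782, 2232, 565 and 2131 CPM in NT cortex and at 1178, 1233, 1390 and 997 CPM in R6/2 cortex. In NT striatum it was at 1755, 4566, 917 and 938 CPM and in R6/2 striatum at 1141, 1729, 2904 and 888 CPM. The striatal samples with 2 sets of counts (1729 to 4566 CPM) all lay above those with 1 set (888 to 1141 CPM). The 4 group ranges overlapped, and the order of the means, NT striatum (2044 ± 1726), NT cortex (1678 ± 766), R6/2 striatum (1666 ± 898) and R6/2 cortex (1200 ± 162), separated no neighbours beyond the larger of their SDs. The log2 fold changes were -0.48 ± 0.29 (cortex), -0.31 ± 0.54 (striatum) and 0.29 ± 0.49 (region, NT). Without NT striatum 2, the sample with 4566 CPM, the striatal value was 0.44 and the regional one -0.48.

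Aplp2 was at 189, 300.5, 285 and 294 CPM in NT cortex and at 325, 289, 309 and 303 CPM in R6/2 cortex. In the striatum it was at 371, 301, 243 and 248 CPM in NT and at 220, 405, 431 and 243 CPM in R6/2 samples. Here too the samples with 2 sets of counts (301 to 431 CPM) all lay above those with 1 set (220 to 248 CPM). No 2 of the 4 group means, which ran from 267 to 325 CPM, were further apart than the larger of their SDs. The smallest SD was 14.9 CPM, in R6/2 cortex. The log2 fold changes were 0.21 ± 0.19, 0.13 ± 0.25 and 0.13 ± 0.25 in the same order of comparisons. The striatal value was 0.57 with ISM isoforms left out, and the cortical one was 0.07 without NT cortex 1.

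Apbb1 as a gene was at 953, 1030, 712 and 1048 CPM in NT cortex and at 510, 658, 803 and 689 CPM in R6/2 cortex. The ranges overlapped through NT cortex 3 alone, and the log2 fold change was -0.48 ± 0.20. In the striatum it was at 1183, 1025, 458 and 289 CPM in NT and at 465, 1011, 1232 and 483 CPM in R6/2 samples, with a log2 fold change of 0.10 ± 0.45, which ran from -0.15 to 0.38 with each sample left out in turn. The 4 highest striatal samples (1011 to 1232 CPM) were those with 2 sets of counts and longer isoforms. Genotypes overlapped among these, and among samples with 1 set both R6/2 samples (465 and 483 CPM) lay above both NT samples (289 and 458 CPM). Means fell in the order NT cortex (936 ± 155), R6/2 striatum (798 ± 384), NT striatum (739 ± 432) and R6/2 cortex (665 ± 121), with no neighbours apart by more than their SDs. Striatum against cortex in NT mice gave -0.33 ± 0.39.

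Apbb2 was at 25.4, 22.6, 10.2 and 30.2 CPM in NT cortex and at 36.3, 21.2, 23.1 and 12.01 CPM in R6/2 cortex. In NT striatum it was at 43.4, 45.4, 24.6 and 25.3 CPM and in R6/2 striatum at 39.4, 63.9, 43.5 and 36.8 CPM. The striatal samples with 2 sets of counts (43.4 to 63.9 CPM) again all lay above those with 1 set (24.6 to 39.4 CPM). All 4 R6/2 striatum samples lay above all 4 R6/2 cortex samples, by as little as 0.518 CPM, and the NT ranges overlapped. The means ran from 45.9 ± 12.3 CPM in R6/2 striatum through 34.7 ± 11.3 in NT striatum and 23.2 ± 10.0 in R6/2 cortex to 22.1 ± 8.6 in NT cortex, and of neighbours in this order NT striatum and R6/2 cortex were apart by slightly more than their SDs. The log2 fold changes were 0.00 ± 0.33 (cortex, with a sign that varied between settings), 0.35 ± 0.26 (striatum) and 0.63 ± 0.35 (region, NT). The regional value was 1.35 with ISM isoforms left out, a setting under which 819 of 5708 genes were called, Apbb2 among them.

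**Figure D4:**
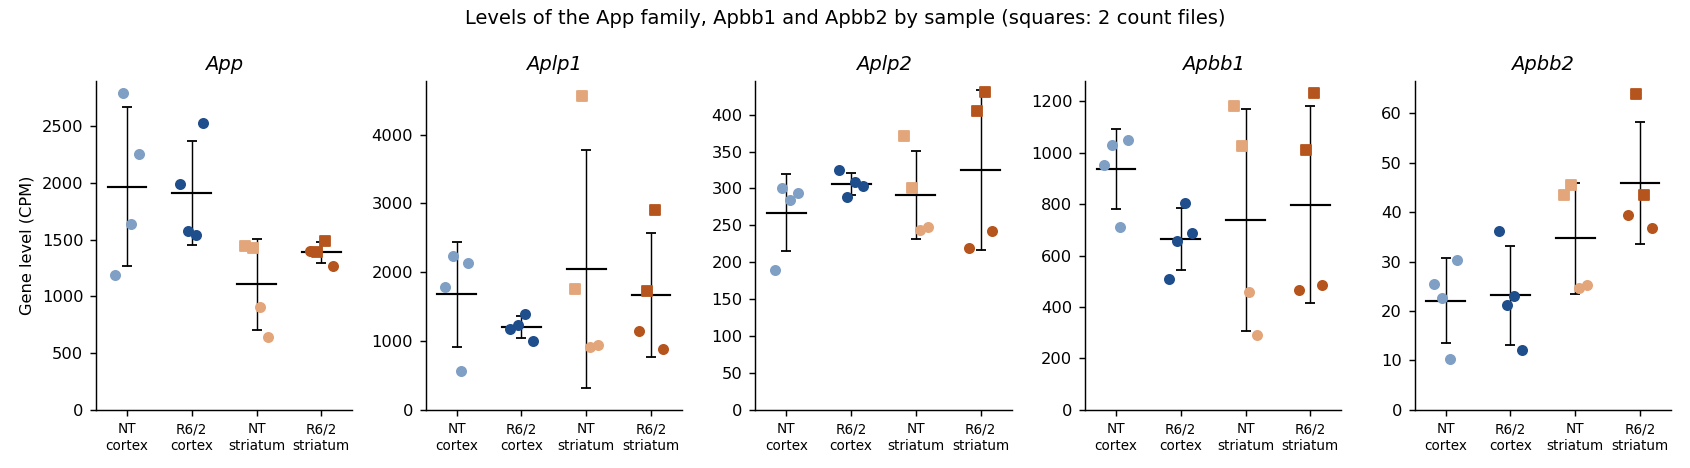
Gene levels (CPM) of App, Aplp1, Aplp2, Apbb1 and Apbb2 in the 16 samples, with lines at group means, bars of 1 SD and squares for striatal samples with 2 sets of counts. NT and R6/2 samples overlap in each region for all 5 genes.

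In the fits across all genes, 0 of 5 members were called (adjusted p under 0.05, edgeR quasi-likelihood test) between genotypes in the cortex, where 3.23% of 6128 genes were called, and 0 of 5 in the striatum, where 0.507% of 7694 genes were called. Likewise 0 of 5 were called between regions in NT mice (15.0% of 7360 genes called) and for the region by genotype interaction (0.0136% of 7360 genes called), for which the members' log2 values ran from -0.04 ± 0.34 (Aplp2) to 0.60 ± 0.55 (Apbb1). Groups did not overlap for 0 of 5 members between genotypes, while cortical groups did not overlap for 9.52% of the 7360 genes and striatal groups for 5.90%. Between regions 0 of 5 did not overlap in NT mice (16.1% of all genes) and 2 of 5, App and Apbb2, in R6/2 mice (21.0% of all genes). Gene reads chose the members, and nothing is read from these counts.

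**Figure D5:**
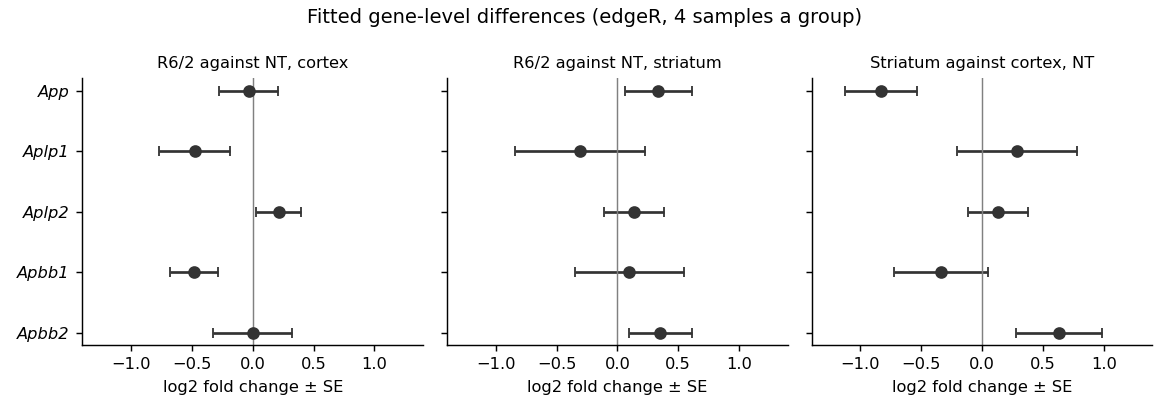
Fitted log2 fold changes of the 5 genes with bars of 1 SE for R6/2 against NT in the cortex (left) and striatum (middle) and for striatum against cortex in NT mice (right), from 4 samples in each group. The values lie between -0.83 (App, right) and 0.63 (Apbb2, right).

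The other genes of the pathway were followed in 6 lists of 43 genes, of which 24 passed the filter on low counts in the cortex and 31 in the striatum. Between genotypes 2 of 24 were called in the cortex, both lower in R6/2 mice, where 3.23% of all genes tested were called, and 0 of 31 in the striatum, where 0.507% were. The median log2 fold change of the genes tested was -0.01 in the cortex and 0.03 in the striatum, beside 0.02 and -0.01 over all genes tested.

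Apoe, the main lipid carrier that glial cells release and a binding partner of amyloid beta, was at 22640 ± 6990 CPM in NT and 12072 ± 1038 CPM in R6/2 cortex (SD, n = 4). Its log2 fold change was -0.88 ± 0.19 (adjusted p = 0.00991, edgeR quasi-likelihood test with Benjamini-Hochberg adjustment). It was called under 12 of 14 alternatives, with adjusted p from 0.00145 to 0.0512, and lost without R6/2 cortex 3 or 4. The sum of the astrocyte markers was also lower in R6/2 cortex, as given above. Of its 6 genes, 1 was called lower there, where 3.23% of all genes were called. The part of astrocytes was not tested. Bin1, a membrane-bending protein of endocytosis, was at 226 ± 16 CPM in NT and 142 ± 14 CPM in R6/2 cortex, a log2 fold change of -0.64 ± 0.17 (adjusted p = 0.0374, edgeR). It was called under 5 of 14 alternatives, with adjusted p from 0.0194 to 0.183.

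By list, 0 of 3 alpha-secretase genes (Adam9, Adam10 and Adam17) passed the filter in cortical samples and 1 did in striatal ones, and 1 of 2 beta-secretase genes passed in both regions. Of the 7 genes of gamma-secretase, which cuts within the membrane, 2 (cortex) and 5 (striatum) were tested, and 0 were called between genotypes. Of 11 other adaptors of the App tail 6 and 7 were tested and 0 called. Of 11 genes for sorting and transport of App 10 were tested in each region, with Bin1 the gene called, and of 9 genes for binding and clearance of amyloid beta 5 and 7 were tested, with Apoe the gene called.

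Between regions in NT mice 3 of 29 pathway genes tested were called, where 15.0% of all genes tested were called, so the lists gave no larger share than all genes did. Of these, 2 are described here, named after their values were seen. Mme, the amyloid-degrading protease neprilysin, was at 34.6 ± 7.6 CPM in the striatum and 2.20 ± 3.2 CPM in the cortex (log2 fold change 3.65 ± 0.68, adjusted p = 0.00132, edgeR). Sorl1, a sorting receptor that binds App, was at 31.1 ± 4.9 CPM in the striatum and 90.1 ± 12.9 CPM in the cortex (log2 fold change -1.53 ± 0.28, adjusted p = 0.00116, edgeR). Both calls held under all alternatives in which the gene was tested.

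The genes whose levels followed each member most closely were sought among 5869 genes, by Pearson correlation of log2 CPM over the 16 samples after the mean of samples of the same region and number of count sets had been removed. These correlations share libraries and depth and are descriptions. For App they were Lgi1, Tbpl1 and Ccdc126 (r = 0.893, 0.892 and 0.877), and for Aplp1 they were Prkaca, Strn4 and Arl2bp (r = 0.876, 0.858 and 0.835). For Aplp2 they were Nxt2, Vps35 and Snx10 (r = 0.923, 0.913 and 0.889), of which Vps35, a retromer subunit, is also in the list for sorting and transport of App. For Apbb1 they were Adora1, Nsmf and Lmf1 (r = 0.883, 0.867 and 0.859) and for Apbb2 Birc6, Selenof and Smim13 (r = 0.824, 0.811 and 0.795). Among the members themselves the correlations ran from -0.34 (Aplp1 and Aplp2) to 0.47 (Aplp1 and Apbb2), and App and Apbb1 had r = 0.358.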

How the data were processed

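PacBio Iso-seq libraries from cortex and striatum of R6/2 and NT mice were used, 4 per genotype and region (16 samples, 20 sets of counts). The authors treated RNA with Terminator exonuclease, amplified template-switched cDNA, required polyadenylated full-length reads, aligned these against mm10 (minimap2 2.17-r941 in the submitters' processing notes), corrected the alignments with TranscriptClean and assigned reads with TALON against Ensembl annotations. The deposited values are counts of reads per isoform, unnormalized and before TALON's transcript filter. PCR copies cannot be told from molecules, long molecules may be under-read, and the limit given for a count of 0 covers counting error only.

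Gene counts were summed over known, ISM, NIC and NNC isoforms, and genomic, antisense and intergenic reads were left out. All genes were fitted with edgeR 4.0.16 (R 4.3.3; TMM, filterByExpr, quasi-likelihood test, Benjamini-Hochberg threshold 0.05), and isoforms with at least 10 reads with diffSpliceDGE and gene-level Simes p values. DESeq2 1.42.0, other normalization, filters and read classes, a replicate block and samples left out were alternatives. Scripts were tested on simulated data. Nothing in the labels says that samples of a group are separate litters or cultures, so p values measure the spread between these samples. Exons, coding lengths and sequences came from GENCODE M21 (GRCm38). NIC isoforms with at least 10 reads were placed by exon number and length through annotated exons and junctions, and Apbb1 isoforms were split by length. Both steps were chosen after seeing the data. The members, the pathway and marker lists and the tests were chosen with earlier results of these data known. Pathway genes were named where called between genotypes (at most 3 per list and region), isoforms where they reached 5% of complete reads in a group, and the 3 genes of most like pattern among genes of at least 20 CPM. Python 3.11.15, pandas 2.3.3, numpy 2.4.6 and matplotlib 3.10.9 were used. 1 pathway gene called between regions is not reported here.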

Additional observations from a re-analysis of the deposited data

Results flagged for a closer look

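In 44 groups of 4 samples examined for single values far from the rest, 2 were flagged, and chance flags about 1 in 20. Aplp2 was at 188.9 CPM in NT cortex 1, against 284.9 to 300.5 CPM in the other 3 NT cortex samples. The 57-nt exon of App was in 0.646% of the placed reads of NT cortex 4, against 0.377% to 0.407% in the other 3, which rests on 6 reads of 929.

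Reads of Aplp2 in the genomic class, which match no spliced isoform and entered gene counts only in the alternative setting with that class added, averaged 2.57 CPM in R6/2 cortex. They numbered 1 or 2 in each R6/2 cortex sample and 0 in each NT cortex sample, and the difference was not tested. All 5 members were scanned in both regions, only for R6/2 samples that all lay above the NT samples, and this was the case found. How often such counts separate over all genes was not counted. Libraries held 486596 to 808814 reads in R6/2 cortex and 252885 to 581942 in NT cortex, and the part of depth was not tested.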

How the results depend on the processing

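Counts of genes called were the values that moved most with the settings. In the cortex 198 genes were called by gene level, 95 with ISM isoforms left out and 95 to 300 with 1 sample left out. In the striatum the 39 calls became 13 with upper-quartile normalization, 124 with DESeq2, 140 with no filter on low counts, 13 with ISM isoforms left out, 59 with the genomic class added, 332 with the number of count files as a term, 20 with the first count file only and 3 to 38 with 1 sample left out. The interaction gave 2 calls with DESeq2, 0 with ISM isoforms left out, 2 with the genomic class added and 0 to 1 with 1 sample left out. Isoform usage in the cortex gave 28 calls by the gene-level F test and 3 to 16 with 1 sample left out, and in the striatum 0 with ISM isoforms added, 0 with known isoforms only, 18 by the F test, 19 with count files as a term, 0 with the first count file only and 0 to 7 with 1 sample left out. Between regions it gave 21 by the F test and 0 to 12 with 1 sample left out.

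With the sample number as a replicate block, 205 genes were called by gene level in the cortex, 0 in the striatum and 855 between regions, and 7 and 1 by isoform usage in the cortex and striatum. Correlations of the deviations of same-numbered samples ran from -0.573 to 0.62 between genotypes in the striatum from -0.0736 to 0.173 between genotypes in the cortex, from -0.228 to 0.226 between NT cortex and striatum and from -0.0409 to 0.398 between R6/2 cortex and striatum. No set of pairs was above 0.1 throughout, and the numbers were not taken to pair samples. Such correlations cannot show whether samples of the same number came from 1 mouse. The labels do not say whether cortex and striatum of the same number did. The paper describes the long-read samples as a subset of its short-read samples and states that striatum and cortex were both dissected from the left hemisphere. Many mice therefore probably gave both regions. Regions were compared as independent samples, which leaves out any such pairing, also in the adjusted p values between regions.

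Members called by gene level were 0 to 1 in the cortex with 1 sample left out. The member was Aplp1 without NT cortex 3, where 235 of 6463 genes were called. Between regions 1 was called with DESeq2 (App), where 1225 of 7360 genes were called. With ISM isoforms left out 1 was called (Apbb2), where 819 of 5708 genes were called. With 1 sample left out 0 to 1 was called between regions (App), where 1025 to 1148 genes were called. Nothing is read from these counts of members. By isoform usage members called in the cortex were 0 with ISM isoforms added or the block and 0 to 1 with 1 sample left out. In the striatum 1 was called by the F test (Apbb1), where 18 of 4443 genes were called. Between regions 0 were called with ISM isoforms added and 0 to 1 with 1 sample left out. Of the exon shares, R6/2 minus NT in the striatum was -0.937 points for the App 54-nt exon, -12.0 for the Aplp2 168-nt exon, -11.1 for its 36-nt exon and -75 for the Apbb2 63-nt exon with only samples of 1 count file, and 0.0784, 3.65 and 2.59 for the first 3 of these with only samples of 2 count files. Of the members' log2 fold changes 4 moved, all with ISM isoforms left out, to 0.57 (Aplp2, striatum), 1.35 (Apbb2, region), 0.37 (Aplp2, interaction) and -0.28 (Apbb2, interaction). The other 265 exon and isoform shares recomputed, the Apbb1 short isoforms and the App Kunitz exon among them, moved by less than the spread between samples. The causes were not tested, and Apbb2 is limited by depth throughout.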
